A study of Mus musculus with 6 samples.

Results

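The MiT/TFE transcription factors and the Rag-folliculin proteins that control them at the lysosome were examined in mouse RAW264.7 macrophages. The 10 genes were taken by their mouse symbols from the 49315 genes of a table of read counts. They are the factors Tfeb, Tfe3, Mitf and Tfec, the GTPase genes Rragc and Rragd, the folliculin gene Flcn with its partners Fnip1 and Fnip2, and the lysosomal channel gene Mcoln1. All 10 symbols matched 1 gene each. RAW264.7 is an established, macrophage-like line, wild type by its label, and every library came from this line. For 24 h the treated cells received SKI-II, best known for inhibiting sphingosine kinases, at 4 μg/mL, and the control cells a matching amount of its solvent DMSO. RNA was sequenced from 3 libraries per condition to map how the compound changes macrophage transcripts. Cells for sequencing were prepared by the study's qPCR protocol, which describes its replicates as biological, while the labels of the libraries give only a number. The tests measure the spread between these libraries.

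MiT/TFE factors are basic helix-loop-helix leucine zipper proteins that bind E-box sequences in the promoters of lysosomal and autophagy genes. In fed cells, mTORC1 phosphorylates TFEB, TFE3 and MITF at the lysosomal surface and 14-3-3 proteins hold them in the cytosol. RagC and RagD, in dimers with RagA or RagB, bring the factors to the lysosome, and folliculin with FNIP1 or FNIP2 is the GTPase-activating complex for RagC and RagD. MCOLN1 releases calcium from lysosomes, which activates the phosphatase calcineurin and so dephosphorylates TFEB. Several genes of this circuit, among them Mcoln1, Flcn and Rragd, are known targets of the factors themselves. Much of this control acts on protein location, which counts of mRNA do not measure.

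The libraries held 12495957 to 20050677 counts. Macrophage markers were abundant, with all 8 of a list (Adgre1, Cd68, Csf1r, Itgam, Lyz2, Spi1, Cd14 and Fcgr1) detected. Their summed level was 8785 to 11912 CPM (counts scaled to library size) in the DMSO libraries and 5470 to 7744 in the SKI-II libraries. By edgeR, 2 of the 8 genes were higher and 3 lower, beside 18.4% higher and 19.7% lower of all tested genes. The part of this shift in the results was not tested, and fewer cells with a transcript cannot be told apart from less of it per cell. Epithelial markers (Epcam, Krt8 and Krt18) had no counts. The summed lists for T cells, fibroblasts and melanocytes reached at most 1.25 CPM in any library, and Cd3g, Cd8a, Trac and Dct were at 0.

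The E-box is the sequence the factors bind, so the reference promoters of the 10 genes were searched for it. RefSeq gives 15 promoters for these genes on GRCm38.p6, each from 250 bases before to 50 bases after a start site. The E-box CACGTG occurred in 3 of the 15, against 7.15% of 32817 promoters of the same length. It was searched on both strands, as was TCACGTG, the longer form preferred by MiT/TFE factors, which contains it and is found in 3.76% of promoters. The E-boxes of Mcoln1, Fnip1 and Rragc all have this longer form, read as CACGTGA on the other strand, and Mcoln1 has a pair of them. The core of the antioxidant response element, TGACNNNGC, which Nrf2 binds, occurred in 1 promoter each of Fnip2, Mitf and Tfec and in 12.4% of all promoters. These matches are shown so that the letters can be read beside the values of each gene. They describe the reference sequence only, and a short core such as TGACNNNGC is common among all promoters. Distances are to the RefSeq start site of each promoter, which can differ from the ends of the GENCODE gene spans given later. The Mcoln1 match at 46 bases, the Fnip2 match and both Mitf matches lie inside those spans. In the lines below, 5′ to 3′ on the strand of the gene, capitals mark the matched bases.
Mcoln1, plus strand, chr8:3500436-3500464, 72 bases before the start: ggtcgcgcttgTCACGTGttcagttcagg
Mcoln1, plus strand, chr8:3500462-3500491, 46 bases before the start: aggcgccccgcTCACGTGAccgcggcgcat
Fnip1, plus strand, chr11:54438093-54438121, 75 bases before the start: cagtttgctgcCACGTGAtacggctcgtc
Rragc, plus strand, chr4:123917310-123917338, 112 bases before the start: gtgattccgggCACGTGAtagtaccactt
Fnip2, minus strand, chr3:79567772-79567801, 111 bases before the start: cgggcgggccgGCTCCGTCAtatgaccggc
Tfec, minus strand, chr6:16898470-16898499, 47 bases before the start: aacttaaaactGCTGTGTCAtttcttcttc
Mitf, plus strand, chr6:97929567-97929595, 241 bases before the start: ctggggaagGCACAGTCAgcattgccaga
Mitf, plus strand, chr6:97929790-97929816, 16 bases before the start: gccacccctagTGACACAGCcggtgcc

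After SKI-II, Tfec and Mcoln1 were higher, and Tfeb, Fnip1 and Fnip2 were lower. Tfe3, Mitf, Rragc and Flcn did not pass the test, and Rragd was not detected. Of the 10 genes, 9 had enough counts for edgeR's quasi-likelihood test, and 5 of these 9 passed at a Benjamini-Hochberg adjusted p below 0.05 over 12274 genes. Of all tested genes, 38.0% passed, 18.4% higher and 19.7% lower, so 5 of 9 genes, 55.6%, stood beside a high background. Of the 5 called genes, 1 rose by more than 1 on the log2 scale (Tfec), as did 8.28% of tested genes, and 2 fell by more than 1 (Tfeb and Fnip2), as did 7.44%. DESeq2 called the same 5 members, beside 32.2% of the genes it tested. The SKI-II values were all above the DMSO values in 3 of the 9 genes (Tfe3, Tfec and Mcoln1) and all below them in 3 (Tfeb, Fnip1 and Fnip2), as in 24.7% and 25.5% of tested genes. The median log2 fold change of the 9 was -0.13 and that of all tested genes 0.0038.

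**Figure D1:**
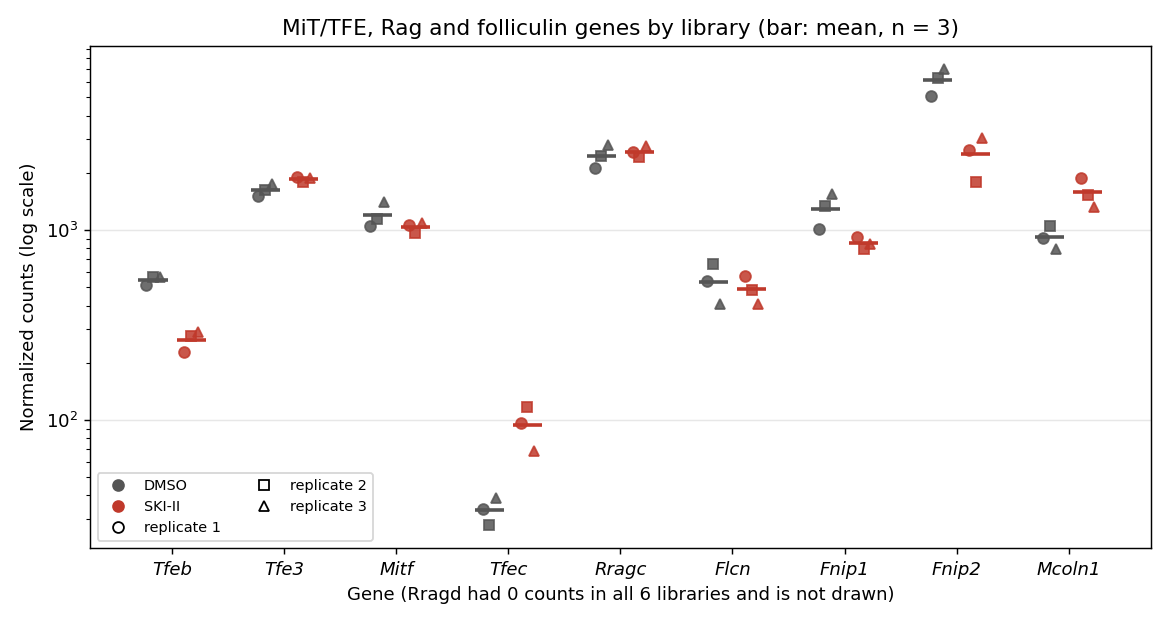
Normalized counts (log scale) of the 9 detected genes in each of the 3 DMSO and 3 SKI-II libraries, with a bar at the mean of a group. The groups are apart for Tfeb, Tfe3, Tfec, Fnip1, Fnip2 and Mcoln1 and overlap for Mitf, Rragc and Flcn.

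The 4 transcription factors did not move together. Values in the following sentences are normalized counts, which are counts scaled to a library of mean size. Tfeb (chromosome 17, 47737030 to 47792419, GRCm38), the best studied factor of lysosome biogenesis, stood at 514, 566 and 563 in DMSO replicates 1, 2 and 3 and at 228, 276 and 288 in SKI-II replicates 1, 2 and 3. The 3 DMSO libraries lay close together and all 3 SKI-II libraries lay far below them. The mean fell from 547 ± 29.2 (SD, n = 3) to 264 ± 31.8 (SD, n = 3), which is -1.05 on the log2 scale (standard error 0.15, edgeR adjusted p = 0.000541) or 0.483 of the DMSO level. With any library left out, the log2 fold change stayed between -1.12 and -0.96 and the gene stayed called.

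Tfec (chromosome 6, 16833373 to 16898441, minus strand) encodes a family member found mainly in myeloid cells. Its reads numbered 35, 22 and 39 under DMSO against 86, 123 and 84 after SKI-II, which is 34.0, 27.8 and 38.6 normalized counts against 96.2, 117 and 68.4. All SKI-II libraries were above all DMSO libraries, with SKI-II replicate 3 the lowest of its group. Tfec rose from 33.5 ± 5.44 to 94.0 ± 24.5 normalized counts (SD, n = 3 each), or by 1.48 on the log2 scale (standard error 0.30, edgeR adjusted p = 0.00375), or 2.78-fold. This was the largest increase among the 10 genes and it rests on the fewest reads of any detected member. The log2 fold change was 1.29 to 1.66 with any library left out.

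Tfe3 (chromosome X, 7762560 to 7775202), which acts with TFEB on lysosomal genes in macrophages, stood at 1509, 1618 and 1745 normalized counts under DMSO against 1892, 1798 and 1885 after SKI-II. The groups did not overlap, but the difference was small, with a log2 fold change of 0.19 (95% interval -0.06 to 0.44, edgeR adjusted p = 0.202). It was 0.13 to 0.25 with 1 library left out, lowest without DMSO replicate 1. Mitf (chromosome 6, 97807052 to 98021349), the factor of melanocytes and osteoclasts, was at 1047, 1145 and 1410 under DMSO against 1056, 967 and 1088 after SKI-II. Here the groups overlapped, DMSO replicate 3 was the highest library, and the log2 fold change was -0.21 (95% interval -0.52 to 0.10, edgeR adjusted p = 0.264). Without DMSO replicate 3 it was -0.081. These intervals leave out a change of 2-fold in either gene.

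To compare the levels of different factors, counts were divided by the length of the merged exons of each gene, as RPKM, a count scaled to gene length and to library size. In DMSO, Mitf was at 12.1 ± 1.89, Tfe3 at 10.9 ± 0.794, Tfeb at 6.01 ± 0.321 and Tfec at 0.373 ± 0.0605 RPKM (SD, n = 3). Mitf and Tfe3 overlapped between libraries and were not separated, while Tfeb and Tfec each lay below them in every library. In SKI-II the order was Tfe3 at 12.5 ± 0.353, Mitf at 10.4 ± 0.627, Tfeb at 2.90 ± 0.349 and Tfec at 1.05 ± 0.273, with no overlap between neighbours. The summed level of the 4 factors was 26.7, 28.9 and 32.5 RPKM under DMSO against 26.9, 26.1 and 27.5 after SKI-II, groups that overlapped (two-sided exact permutation test, p = 0.3). With 3 against 3 libraries this test cannot go below 0.1.

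As a share of that sum, Tfeb was 21.1%, 21.5% and 19.0% under DMSO against 9.33%, 11.6% and 11.5% after SKI-II. Tfe3 was 38.0%, 37.6% and 36.1% under DMSO against 47.2%, 46.2% and 46.0% after SKI-II. For both genes the groups did not overlap, which gave the smallest p this design allows (two-sided exact permutation test, p = 0.1). Tfec was 1.29% ± 0.177 of the sum in DMSO and 3.93% ± 1.12 in SKI-II (SD, n = 3), with no overlap and the same p of 0.1 in the exact permutation test. The share of Mitf was 40.9% ± 2.31 in DMSO and 38.8% ± 1.38 in SKI-II, with overlapping libraries (exact permutation test, p = 0.3), and the difference of -2.15 percentage points fell in size to -0.825 when DMSO replicate 3 was left out and to -1.36 when SKI-II replicate 2 was. The exon length chosen matters for the levels, because the merged exons of Tfeb span 5669 bases and its longest transcript 2342. With the longest transcript as the length, Tfeb was 31.4% ± 1.74 of the sum in DMSO and 17.4% ± 1.93 in SKI-II, its level of 14.6 ± 0.777 RPKM in DMSO overlapped those of Mitf and Tfe3, the share of Mitf was 32.8% in both groups, and the summed level was lower in every SKI-II library, at 46.5 ± 4.18 against 40.3 ± 0.962 RPKM.

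**Figure D2:**
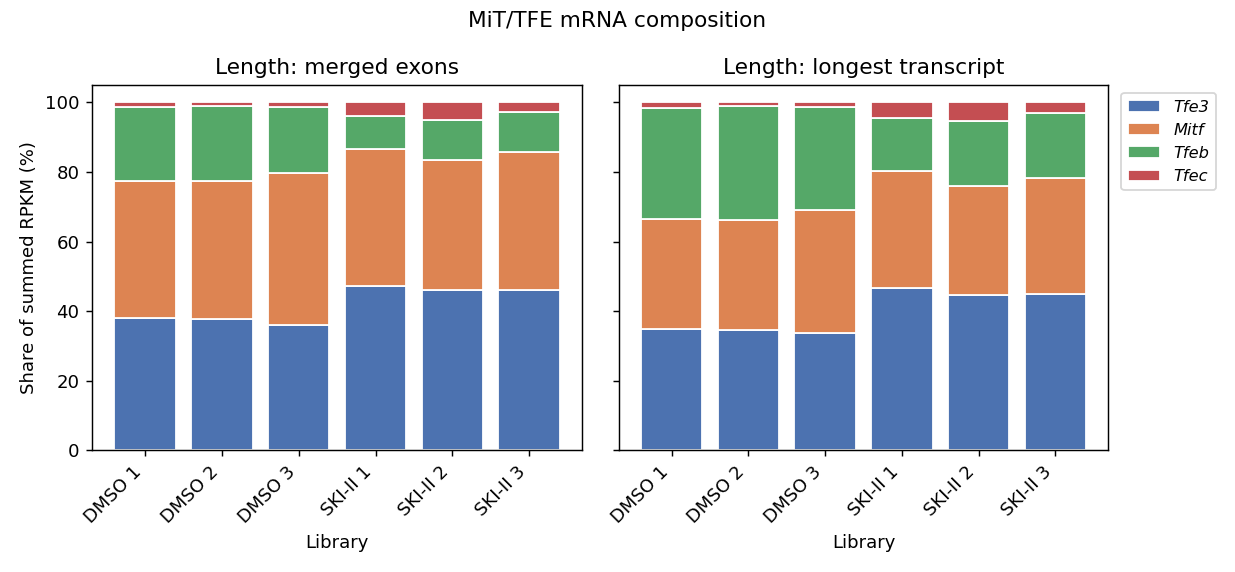
Share of each factor in the summed RPKM of Tfe3, Mitf, Tfeb and Tfec, in percent, for each of the 6 libraries, with merged exons (left) or the longest transcript (right) as the gene length. Under both lengths the band of Tfeb is narrower and those of Tfe3 and Tfec are wider in the 3 SKI-II libraries than in the 3 DMSO libraries.

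The folliculin partners fell while folliculin itself did not pass the test. Fnip2 (chromosome 3, 79455974 to 79567796, minus strand) was the gene with the most reads of the 10 in DMSO, at 5103, 6332 and 7061 normalized counts under DMSO against 2650, 1786 and 3068 after SKI-II. The highest SKI-II library was well below the lowest DMSO library. It fell from 6165 ± 990 to 2501 ± 654 (SD, n = 3 each), which is -1.30 on the log2 scale (standard error 0.20, edgeR adjusted p = 0.000928) or 0.406 of the DMSO level, the largest decrease of the 10. With any library left out the log2 fold change was -1.48 to -1.11 and the gene stayed called.

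Fnip1 (chromosome 11, 54438199 to 54518235) stood at 1006, 1334 and 1546 normalized counts under DMSO against 920, 791 and 847 after SKI-II. The groups did not overlap, but DMSO replicate 1 was near the SKI-II libraries. Fnip1 fell by 0.60 on the log2 scale (standard error 0.16, edgeR adjusted p = 0.0157). The call was lost without DMSO replicate 2 (log2 fold change -0.59, edgeR adjusted p = 0.0574) and without SKI-II replicate 2 (-0.55, edgeR adjusted p = 0.0659).

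Flcn (chromosome 11, 59791408 to 59810016, minus strand) was at 538, 659 and 405 normalized counts under DMSO against 573, 481 and 407 after SKI-II. The ranges overlapped nearly fully, and in both groups replicate 3 was the lowest library. The log2 fold change was -0.13 (95% interval -0.58 to 0.31, edgeR adjusted p = 0.633), and it was 0.036 without DMSO replicate 2. The spread of Flcn between libraries was therefore too wide to tell a small change in either direction from none.

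Per length, Fnip2 exceeded Fnip1 in all 6 libraries. The log2 ratio of Fnip2 to Fnip1 was 2.11, 2.01 and 1.96 under DMSO against 1.29, 0.94 and 1.62 after SKI-II. The mean ratio was thus 4.08-fold under DMSO and 2.44-fold after SKI-II, a difference of -0.74 on the log2 scale with no overlap between the groups (two-sided exact permutation test, p = 0.1, the smallest possible). The summed level of both genes, a quantity added after the data were seen, was 57.2 ± 9.75 RPKM in DMSO and 26.1 ± 5.23 in SKI-II (SD, n = 3), again without overlap (two-sided exact permutation test, p = 0.1). Flcn was at 7.70 ± 1.83 RPKM in DMSO and 7.01 ± 1.20 in SKI-II, so its partners together were several times more abundant as mRNA in both groups.

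Of the Rag GTPase genes, Rragc (chromosome 4, 123917446 to 123936997) was expressed in every library and Rragd (chromosome 4, 32983037 to 33022180) in none. Rragc was at 2109, 2438 and 2818 normalized counts under DMSO against 2571, 2412 and 2772 after SKI-II. The ranges overlapped, the log2 fold change was 0.07 (95% interval -0.22 to 0.37, edgeR adjusted p = 0.694), and it was -0.039 without DMSO replicate 1. An opposite-strand gene, 4930535I16Rik, covers 7.90% of the merged exons of Rragc, and since the strand setting of the counting is not given, reads of that stretch cannot be assigned. No exon of the other 9 genes overlaps an exon of another gene.

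Rragd, which encodes the close relative of RagC, had 0 counts in all 6 libraries. These zeros allow up to 0.0659 CPM over the DMSO libraries and up to 0.0588 over the SKI-II libraries, with 3 counts over a group as the upper limit for a count of 0. Against that limit, Rragc was at least 3585-fold higher per length than Rragd in DMSO and at least 4247-fold higher in SKI-II. Only 0.19% of the 50-base stretches of Rragd transcripts occur in transcripts of another gene, and 6.75% of those of Rragc. Limits of this kind cover counting error only, and no induction of Rragd by SKI-II was detectable at this depth.

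Mcoln1 (chromosome 8, 3500457 to 3515232), with the pair of E-boxes shown above, encodes the TRPML1 calcium channel of lysosomes. It stood at 908, 1051 and 789 normalized counts under DMSO against 1874, 1530 and 1325 after SKI-II. Every SKI-II library was above every DMSO library, and replicate 3 was the lowest library of both groups. Mcoln1 rose from 916 ± 131 to 1576 ± 277 (SD, n = 3 each), or by 0.78 on the log2 scale (standard error 0.16, edgeR adjusted p = 0.00419), or 1.72-fold. It stayed called with any library left out, at 0.63 to 0.89. Among the genes with a MiT-type E-box in these windows, Mcoln1 was thus higher, Fnip1 lower and Rragc not called.

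**Figure D3:**
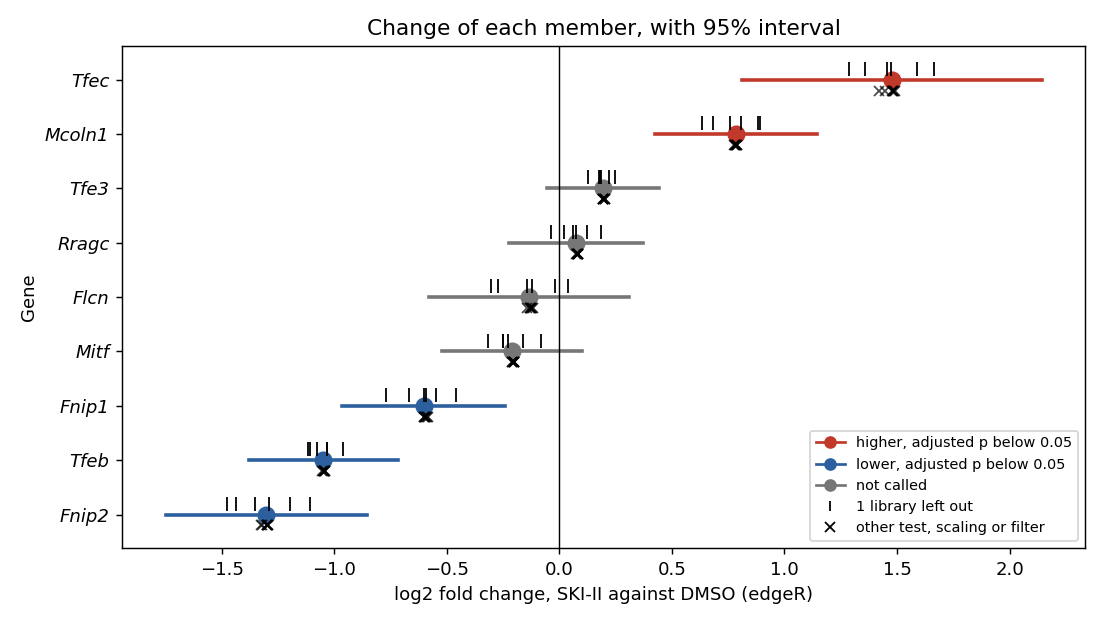
Log2 fold change of each of the 9 tested genes, SKI-II against DMSO, as a point with its 95% interval from edgeR. Ticks above mark fits with 1 library left out and crosses below mark other tests, scalings and filters, and Tfec, Mcoln1, Fnip1, Tfeb and Fnip2 lie clear of 0 while Tfe3, Rragc, Flcn and Mitf have intervals that include it.

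Across all 10 genes, the levels per length in DMSO were ordered as follows. Fnip2 at 45.9 ± 7.37 and Rragc at 45.8 ± 6.62 RPKM overlapped and both stood at percentile 90.8 of the tested genes. Mitf, Fnip1 at 11.3 ± 2.38 and Tfe3 followed and overlapped each other. Flcn overlapped Fnip1 above it and both Mcoln1 at 7.55 ± 1.08 and Tfeb below it, while Mcoln1 and Tfeb did not overlap each other. Tfec and Rragd came last, apart from the rest. In SKI-II, Rragc at 48.2 ± 3.36 RPKM stood alone at the top, Fnip2 at 18.6 ± 4.87 came down into the range of Mcoln1 at 13.0 ± 2.29, and Fnip1 at 7.46 ± 0.564 overlapped Flcn. With the longest transcript as the length, Mcoln1 took rank 3 in DMSO at 19.7 ± 2.82 RPKM and overlapped Tfe3, since its merged exons span 7555 bases and its longest transcript 2889. In SKI-II this length put Mcoln1 at 34.0 ± 5.98 RPKM, above Fnip2 at 21.3 ± 5.58 with no overlap.

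The proteins that work with these genes were followed in lists written from general knowledge. Of 8 Rag and Ragulator genes, which build the lysosomal platform (Rraga, Rragb, Lamtor1 to Lamtor5 and the arginine sensor Slc38a9), 0 passed edgeR's test, 3 had an unadjusted p below 0.05, and DESeq2 also called 0, beside 38.0% and 32.2% of all genes tested by these tools. Rragb was at 112 ± 27.4 normalized counts under DMSO and 68.5 ± 13.0 after SKI-II (edgeR adjusted p = 0.0631), and was called lower without DMSO replicate 3 (edgeR adjusted p = 0.0311) and in the fit with a replicate block (edgeR adjusted p = 0.0380). Lamtor1 differed by -0.27 (edgeR adjusted p = 0.0839), Rraga by 0.23 and Slc38a9 by 0.49 on the log2 scale without passing. Slc38a9 differed by 0.32 when SKI-II replicate 1 was left out. The 3 genes with an unadjusted p below 0.05 were Rragb, Slc38a9 and Lamtor1. They and Rraga were chosen after their values were seen. Across the 8 genes the median log2 fold change was 0.02.

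Of 9 genes of mTORC1 and its inhibitor TSC, 1 was higher and 3 were lower, which is 44.4% called beside 38.0% of all tested genes. Deptor, an mTOR-binding inhibitor, fell from 400 ± 78.8 to 204 ± 46.1 normalized counts (log2 fold change -0.97, edgeR adjusted p = 0.00552). Rheb, the GTPase that activates mTORC1, fell by 0.53 (edgeR adjusted p = 0.0195) and Akt1s1, which encodes the inhibitory subunit PRAS40, rose by 0.50 (edgeR adjusted p = 0.0241), while Mtor itself, chosen after its value was seen, fell by 0.42 (edgeR adjusted p = 0.0180). Rheb and Mtor were not called without DMSO replicate 2 or without SKI-II replicate 2, where 1 gene of the list was lower. Akt1s1 was not called without replicate 1 or 2 of either group. Among 16 tested genes of GATOR, KICSTOR and the amino acid sensors, 2 were higher and 2 lower, or 25% beside 38.0% of all tested genes, and 4 were higher and 4 lower with a replicate block, a fit that called 45.5% of all tested genes. Sesn2, a leucine sensor induced by stress, rose from 1283 ± 68.5 to 2002 ± 309 (log2 fold change 0.64, edgeR adjusted p = 0.00464), and its relative Sesn1 fell from 554 ± 57.4 to 298 ± 37.2 (-0.89, edgeR adjusted p = 0.00174). Nprl3 of GATOR1 rose by 0.57 (edgeR adjusted p = 0.0153) and was not called without DMSO replicate 2 or without SKI-II replicate 3, and the lower genes numbered 1 without DMSO replicate 2 or without SKI-II replicate 1. Of 8 tested genes of AMPK, which phosphorylates FNIP1, and of the C9orf72 complex, 1 was called, 12.5% beside 38.0% of all tested genes. This was Prkag2, which fell by 0.37 (edgeR adjusted p = 0.0486) and was called neither by DESeq2 nor with any library left out. The largest difference of the list was that of Prkab2, at 113 ± 49.4 normalized counts under DMSO and 244 ± 113 after SKI-II. Its libraries overlapped and it did not pass (log2 fold change 1.10, edgeR adjusted p = 0.0524). Wdr41 differed by -0.39 without passing (edgeR adjusted p = 0.0528), and both were chosen after their values were seen. Of 10 alternatives, 4 gave another number of higher genes in this list (1 in place of 0) and 9 another number of lower genes (0 to 2).

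On the calcium side, 3 of 13 genes for lysosomal channels, PIKfyve and calcineurin were higher and 4 were lower, or 53.8% called beside 38.0% of all tested genes. Mcoln2 and Mcoln3, the relatives of Mcoln1, were chosen after their values were seen. Mcoln2 was at 327 ± 76.9 normalized counts under DMSO and 384 ± 61.5 after SKI-II (log2 fold change 0.23, edgeR adjusted p = 0.411), a difference of 0.046 when DMSO replicate 3 was left out and 0.11 when SKI-II replicate 3 was. Mcoln3 had 8 to 13 counts per library in DMSO and 9 to 25 in SKI-II (edgeR adjusted p = 0.321). Tpcn1, a 2-pore channel gene of endosomes and lysosomes, fell by 0.66 (edgeR adjusted p = 0.00843), and the calcineurin catalytic gene Ppp3cb fell by 0.70 (edgeR adjusted p = 0.00147). In the same complex, the catalytic gene Ppp3cc rose by 0.48 (edgeR adjusted p = 0.0384) and the regulatory gene Ppp3r1 by 0.38 (edgeR adjusted p = 0.0232), both chosen after their values were seen. Ppp3cc was called only without DMSO replicate 1 when a library was left out, and Ppp3r1 was not called without DMSO replicate 2 or SKI-II replicate 1 or 2. Of the PIKfyve genes, Fig4 differed by -0.54 (edgeR adjusted p = 0.0176) and Vac14 by -0.53 (edgeR adjusted p = 0.00742), both chosen after their values were seen. Vac14 stayed called with any library left out, and Fig4 was not called without SKI-II replicate 1. The potassium and proton channel gene Tmem175 rose by 0.61 (edgeR adjusted p = 0.0499), but was not called without DMSO replicate 2 or 3, without any SKI-II library, with library size as the only scaling, or under the filter of 10 counts per library. Its log2 fold change dropped to 0.40 when DMSO replicate 3 was left out. The genes called higher in this list numbered 0 without DMSO replicate 2 or without SKI-II replicate 1 or 2, and 1 without replicate 3 of either group. Of 6 tested 14-3-3 genes, 1 was higher and 2 lower, or 50% beside 38.0% of all tested genes. Ywhag rose by 0.83 (edgeR adjusted p = 0.00135), and Ywhae fell by 0.64 (edgeR adjusted p = 0.00966). Ywhaq fell by 0.49 (edgeR adjusted p = 0.0459), a call lost without replicate 2 of either group, DMSO replicate 3 or SKI-II replicate 1. The higher genes of this list numbered 2 without DMSO replicate 1 or SKI-II replicate 3.

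Of 40 genes known as MiT/TFE targets, 39 were tested, and 6 were higher and 14 lower, which is 51.3% against the 38.0% of all tested genes. The median log2 fold change was -0.22. Sqstm1, which encodes the autophagy receptor p62 and is also a target of Nrf2, rose by 3.07 (edgeR adjusted p = 1.20e-05). Lamp1, a main glycoprotein of the lysosomal membrane, fell from 13749 ± 2561 to 3870 ± 694 normalized counts (log2 fold change -1.83, edgeR adjusted p = 7.41e-05), and Atp6v0d2, a subunit of the proton pump, fell from 1180 ± 256 to 373 ± 86.0 (-1.66, edgeR adjusted p = 0.000234). Some genes chosen after their values were seen also moved in opposed directions. Gpnmb fell from 63323 ± 5544 to 31287 ± 11974 (-1.02, edgeR adjusted p = 0.00998) and Tpp1, a lysosomal peptidase gene, fell by 1.56 (edgeR adjusted p = 0.000121), whereas Ctsd, the aspartic protease cathepsin D, rose by 0.90 (edgeR adjusted p = 0.00383) and Cd63 by 0.72 (edgeR adjusted p = 0.00242). The genes called higher in this list numbered 3 without DMSO replicate 1 or without DMSO replicate 2.

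**Figure D4:**
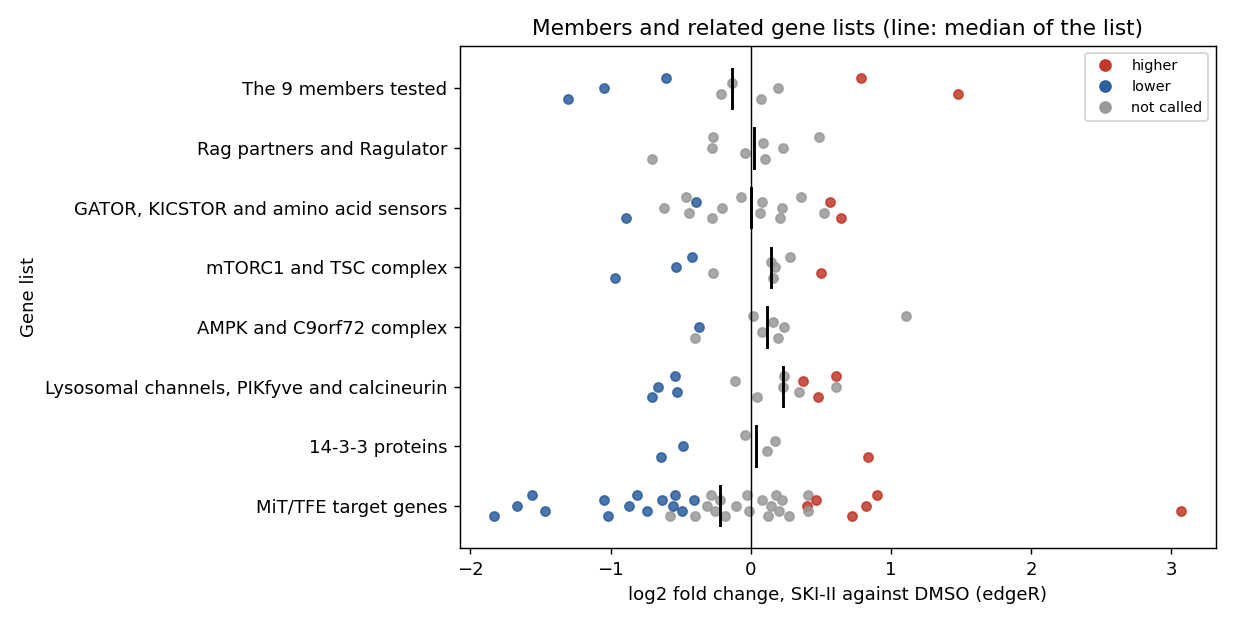
Log2 fold change, SKI-II against DMSO, of the 9 tested members and of each gene in 7 related lists, with a line at the median of a list and colours for genes called higher or lower by edgeR. Genes called higher and lower stand side by side in most lists, Ragulator and Rag partners have 0 called genes, and Sqstm1 lies apart at 3.07.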

How the data were processed

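RNA from 3 DMSO and 3 SKI-II libraries was enriched with oligo(dT) beads. Per the submitters' processing notes, the authors used Trimmomatic 0.36, STAR 2.5.2b and featureCounts of Subread 1.5.2, and they deposited raw counts per Ensembl gene. The build, annotation release and strand setting were not given in the sources used here. Names, places and lengths were taken from GENCODE M21 (GRCm38), and start sites and promoters from RefSeq (GRCm38.p6). Groups and replicate numbers came from the sample titles.

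The main test was edgeR 4.0.16 in R 4.3.3 (quasi-likelihood test, TMM scaling, default filter on expression with a minimum count of 10, Benjamini-Hochberg adjustment over 12274 genes), with fold changes at edgeR's default prior count. The authors used DESeq2, which was run as an alternative (1.42.0), beside limma-voom (3.58.1), other scalings and filters, each library left out and a replicate block. Ratios and shares had 0.5 counts added. Exact permutation tests used scipy 1.17.1. The planned ratio of Rragd to Rragc was given as a limit, since Rragd had no counts. The scripts were tested on simulated data before use. No 2 libraries of a group agreed within sampling noise. Members, lists and tests were chosen with earlier results of these data known. All members are named, and in each list up to 3 called genes by size of change and the leading called gene of the opposite sign, and others are said to have been chosen later. Kics2 matched no gene of the table.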

Additional observations from a re-analysis of the deposited data

How the results depend on the processing

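The numbers of members called, 2 higher and 3 lower, were the same with DESeq2, limma-voom, RLE scaling, library size alone, no filter, and at least 10 counts in every library. Requiring a log2 fold change above 1 or below -1 left 1 higher (Tfec, beside 8.28% of tested genes) and 2 lower (Tfeb and Fnip2, beside 7.44%). With each library left out, the lower calls numbered 2 to 3 and the higher calls 2 throughout. The log2 fold change then ranged from -0.039 to 0.18 for Rragc, negative without DMSO replicate 1, and from -0.30 to 0.036 for Flcn, positive without DMSO replicate 2, neither of them called. Whether the replicate numbers pair the libraries was not settled. After the group means were taken off, same-numbered libraries correlated at 0.246, 0.00994 and 0.458 for replicates 1, 2 and 3. The value for replicate 3 was the highest of any DMSO and SKI-II library, while SKI-II replicate 2 correlated best with DMSO replicate 1 (0.296). Differently numbered libraries went down to -0.462, for DMSO replicate 1 with SKI-II replicate 3. With the number as a replicate block, members called were again 2 higher and 3 lower, while calls over all genes went from 38.0% to 45.5%, and DESeq2 gave 32.2%. With the longest transcript as the length, the difference between SKI-II and DMSO in share was -13.96 percentage points for Tfeb (-9.74 with merged exons), 10.97 for Tfe3 (9.25) and 0.0068 for Mitf (-2.15), and that in the summed MiT/TFE level was -6.21 RPKM (-2.51), since the lengths weigh the genes differently. The summed MiT/TFE difference was -3.85 RPKM without DMSO replicate 1 and -0.938 without DMSO replicate 3. Depth limits Tfec, with 22 to 123 counts per library, and Rragd.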
